A study of Mus musculus with 9 samples.

Results

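Brains of 18-month-old mice given the ginseng polysaccharide fraction GRP-E1F2 were compared with brains of 5-month-old mice given saline, gene by gene, to describe what separated treated old from young tissue. The libraries are RNA sequencing libraries of brain from KM mice, an outbred laboratory stock, labelled as males. The young group received oral physiological saline at 5 months of age, the treated group received 200 mg/kg GRP-E1F2 by gavage at 18 months, and an 18-month group that received saline is shown beside them (called aged saline here). All 3 groups were dosed every 2 days for 4 weeks. GRP-E1F2 is a polysaccharide fraction from ginseng root. Each group holds 3 libraries, so the comparison rests on 6 of the 9 libraries of the series. Of 22192 genes listed, 13301 had a mean of at least 1 TPM (the deposited unit, a gene's length-adjusted share of its library's transcripts) over the 9 libraries and were tested. The series' title names prodynorphin, an opioid peptide precursor, and cellular senescence as its subjects. Treated and young libraries differ in both age and treatment, and the effects of the 2 cannot be told apart in this comparison. For that reason the values of aged saline, and the test of treated against aged saline, stand beside the results.

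Whole-brain RNA is a mixture of regions and cell types. The cerebellum holds densely packed granule neurons and the large Purkinje neurons, the brainstem keeps the positional Hox code of its development, and cortex and striatum are made mostly of projection neurons and interneurons of forebrain origin. Neuronal activity switches on immediate early genes within minutes, while oligodendrocytes make myelin, astrocytes clear glutamate and potassium, and microglia are the resident macrophages. In bulk tissue, fewer cells of a type and less RNA per cell cannot be told apart.

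The labels call the tissue brain, while the protocol text speaks of retina. Photoreceptor genes (Gnat1, Pde6b and Pdc) were at 0.23 TPM or less in all 9 libraries, 3 of 15 genes on a list of retinal markers passed the filter, and 4 neuronal genes (Eno2, Rbfox3, Map2 and Snap25) lay between 52.9 and 3573 TPM. Y-linked genes (4 of them) were at 0.174 TPM or less in every library, although the mice are labelled male. The labels call the libraries of a group parallel samples without tying them to individual mice, so the p-values reflect only how far these libraries spread, which may be technical. One library in each group (young library 3, aged saline library 2 and treated library 3) lay between its 2 partners at 89.2%, 91.5% and 91.8% of the genes where the partners differed by at least 1.3-fold. The other 6 libraries lay between their partners at 19.2% to 30.5% of such genes. Of the genes at 0 in both partners, young library 3, aged saline library 2 and treated library 3 were above 0 at 0.064%, 0.298% and 0.353%. For the other 6 libraries this share was 4.44% to 5.39%. Counts are therefore also given from a fit without those 3 libraries, called the fit with 2 libraries per group. If such a library were not independent of its partners, each group would hold 2 samples and the p-values of the fit with all libraries would be too small, and whether it is independent was not tested. The mean absolute log2 difference between libraries was 0.114 to 0.191 within young, 0.145 to 0.253 within treated, 0.193 to 0.338 between young and aged saline, and 0.344 to 0.467 between young and treated. Every treated library was thus farther from every young library than any young library was from an aged saline one. TPM values are shares of a library, and the sequencing depth is unknown.

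Nearly as many genes passed the test as did not. On the log2(TPM + 1) scale, on which all log2 differences here are given, limma called 6204 of 13301 genes (46.6%) at a Benjamini-Hochberg adjusted p below 0.05, of which 2294 (17.2%) were higher and 3910 (29.4%) were lower in treated than in young brain. With 2 libraries per group the calls were 1713 (12.9%), with 520 higher (3.91%) and 1193 lower (8.97%). The lean towards falls depended on scaling: the median log2 fold change of all genes was -0.07 with TPM as deposited, and under median-of-ratios scaling, which moved that median to about 0, there were 2999 rises (22.5%) and 3090 falls (23.2%). Most differences were small, the median size of the log2 difference over all tested genes being 0.24. In 8162 genes (61.4%) the treated and young values did not overlap, with treated above in 3045 (22.9%) and below in 5117 (38.5%). Called genes that differed by at least 1 log2 unit numbered 1006 (7.56%), of which 391 rose (2.94%) and 615 fell (4.62%). At 3 log2 units the imbalance was wider, with 5 rises (0.0376%) and 48 falls (0.361%) among 53 genes (0.398%). The 5 rises were 3 pituitary hormone genes (Prl, Gh and Cga), the olfactory gene S100a5 and a predicted gene, Gm54192. In aged saline against young, 2217 genes were called (16.7%), 729 up (5.48%) and 1488 down (11.2%). Treated against aged saline gave 2771 calls (20.8%), 994 up (7.47%) and 1777 down (13.4%).

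**Figure D1:**
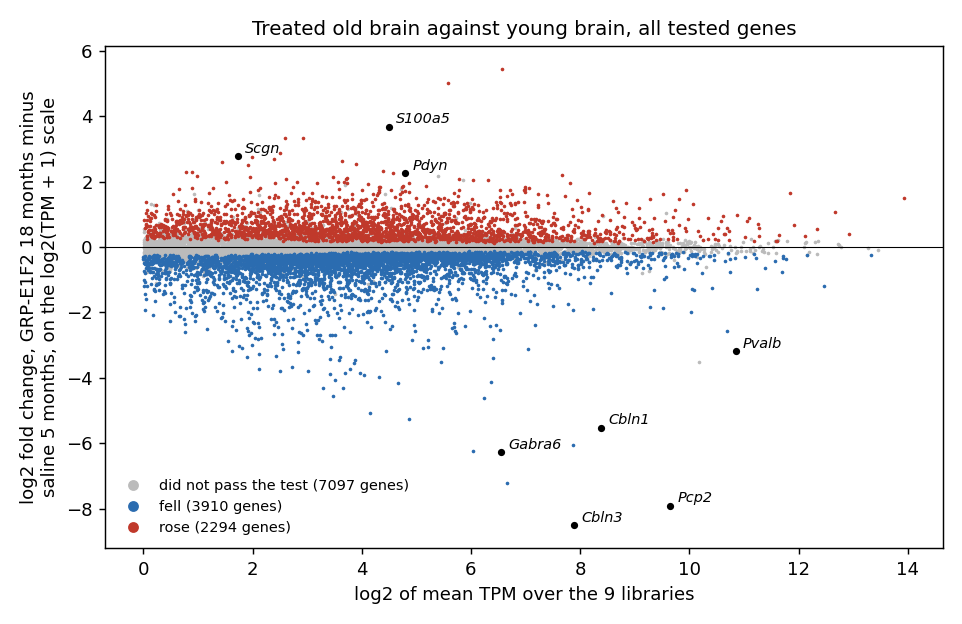
Log2 fold change of treated against young brain (vertical axis, log2(TPM + 1) scale) against mean level over the 9 libraries (horizontal axis, log2) for the 13301 tested genes, 1 point per gene, with called rises and falls coloured. The lowest points are Cbln3 at -8.51 and Pcp2 at -7.90, both cerebellar genes, and far fewer points lie above 3 than below -3.

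The deepest falls were genes of the cerebellum. The labels do not say which parts of the brain were taken in each group, so the regions a sample held and expression within a region cannot be told apart, here and for the brainstem and forebrain lists below. Of 20 tested markers of cerebellar granule and Purkinje neurons, 19 fell and none rose, and the same counts came from the fit with 2 libraries per group. The median log2 difference of the list was -3.32, against -0.07 for all genes. The exception was Shank2, a postsynaptic scaffold also made in forebrain, at -0.26 (adjusted p = 0.16). The mean level of the list (log2 TPM + 1) was 6.80 to 7.27 in the young libraries, 6.22 to 6.36 in aged saline and 3.08 to 3.14 in treated, so the 3 groups did not overlap. Aged saline against young had a median of -0.73 with 18 falls, and treated against aged saline had 19 falls with a median of -2.56. Most of the distance from young thus lay between the treated and the aged saline libraries.

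Values below are TPM in libraries 1, 2 and 3 of each group, in that order. Cbln3 (NCBI Gene 56410, chr14:55878920-55884256, mm10), a synaptic organiser secreted by granule neurons, stood at 363, 509 and 434 in young, 277, 277 and 274 in aged saline and 0.117, 0.111 and 0.343 in treated libraries. Every treated library was near 0 while every other library held a high level, a log2 difference from young of -8.51 ± 0.12 (SE, adjusted p = 1.03e-09; against aged saline, 2.1e-09). Pcp2 (NCBI Gene 18545, chr8:3623369-3625547), a Purkinje neuron gene, was at 1278, 1916 and 1575 in young, 627, 846 and 947 in aged saline and 3.16, 9.09 and 5.73 in treated libraries, and it fell by 7.90 ± 0.30 (adjusted p = 3.57e-07). The granule neuron GABA-A receptor subunit Gabra6 (NCBI Gene 14399, chr11:42306437-42321072) read 146, 219.9 and 181 in young, 102, 95.7 and 92.8 in aged saline and 1.59, 1.58 and 0.886 in treated libraries (-6.28 ± 0.16, adjusted p = 4.24e-08). Car8, a Purkinje protein that damps the inositol trisphosphate receptor, went from 371, 548 and 451 in young to 5.64, 6.11 and 5.73 in treated libraries, a mean TPM 78.4 times higher in young. For each of these genes the treated libraries lay far below all 6 saline libraries. Cbln1, the granule neuron organiser of parallel fibre synapses, fell by 5.53 from 534, 741 and 618 to 10.1, 15.7 and 12.5 TPM. Neurod1, which granule neurons keep in adult life, fell by 4.61, and Fat2, a granule neuron cadherin, fell by 4.31 with treated values of 0.00854, 0 and 0. The calcium buffer Calb1, which other regions also make, was at 313, 422 and 378 in young and 92.7, 97.9 and 99.5 in treated libraries (-1.92). Pvalb, made by Purkinje neurons and by cortical interneurons, was at 2795, 3656 and 3277 in young and 396, 307 and 365 in treated libraries (-3.18).

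**Figure D2:**
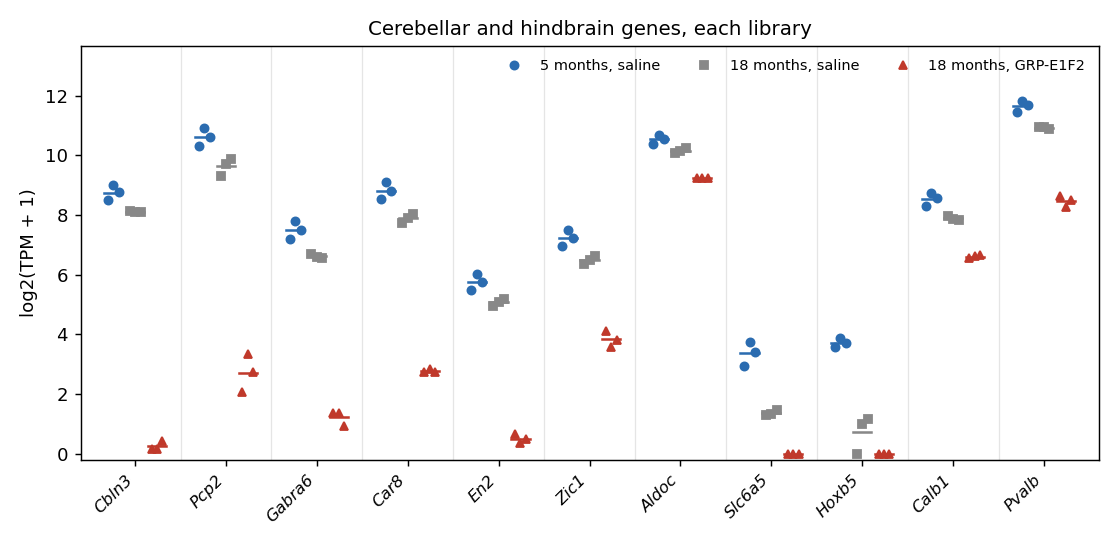
Level of cerebellar and hindbrain genes (vertical axis, log2(TPM + 1)) in each of the 9 libraries. Symbols mark the young, aged saline and treated libraries and short lines the mean of each group. The treated points of Cbln3 and Gabra6 lie near the bottom of the scale (Gabra6 at 1.59, 1.58 and 0.886 TPM). Those of Pcp2 lie above them but far below its saline points, and most aged saline points lie below the young ones.

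Pcp2 and Fat2 are shown with the 250 bases before a RefSeq start (build GRCm38.p6) as examples of such stretches that hold AGGTCA. Whether transcription in brain begins at these starts was not tested. This half-site is part of the sites that the orphan nuclear receptor Rora binds. Rora was at 9.85, 10.05 and 8.98 TPM in young, 12.9, 9.95 and 7.67 in aged saline and 2.81, 1.405 and 2.32 in treated libraries (-1.77 ± 0.20, adjusted p = 0.000144; against aged saline, 0.000353). The window of Pcp2 is chr8:3625548-3625797 (minus strand; 1 of 4 annotated starts) and that of Fat2 is chr11:55312258-55312507 (minus strand). Capitals mark AGGTCA, or its reverse complement TGACCT, and the last base shown lies next to the start.
Pcp2: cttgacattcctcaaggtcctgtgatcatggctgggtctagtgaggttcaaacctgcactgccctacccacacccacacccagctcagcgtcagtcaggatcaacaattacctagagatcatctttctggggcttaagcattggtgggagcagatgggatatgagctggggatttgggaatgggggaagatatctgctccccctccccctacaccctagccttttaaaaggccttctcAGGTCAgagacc
Fat2: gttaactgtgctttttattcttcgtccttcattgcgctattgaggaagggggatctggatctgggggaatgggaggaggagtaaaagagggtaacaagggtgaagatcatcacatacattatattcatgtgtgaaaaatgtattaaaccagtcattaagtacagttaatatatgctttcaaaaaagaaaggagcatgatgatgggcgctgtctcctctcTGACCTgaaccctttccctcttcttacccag
The half-site lies 12 bases before the start of Pcp2 and 31 bases before that of Fat2. Searched on both strands, it occurred in 3 of the 10 cerebellar list genes with a promoter sequence (30%; Barhl1, Fat2 and Pcp2) and in 3740 of 27025 promoters (13.8%). The E-box CAGATG, a site of basic helix-loop-helix factors such as Neurod1, occurred in 1 of the 10 (Pcp2) and in 14.5% of all promoters. A match is a description of these letters only, and a part of Rora in the falls of these genes was not tested.

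Other cerebellar cell types were lower as well. Of 13 tested markers of molecular layer interneurons and Bergmann glia, 12 fell and none rose (9 falls with 2 libraries per group, 9 falls against aged saline), with a median of -1.83. En2, a homeobox gene of midbrain and cerebellum, was at 43.7, 63.6 and 53.4 TPM in young, 30.2, 32.8 and 35.8 in aged saline and 0.578, 0.296 and 0.409 in treated libraries (-5.25). Dao, the D-serine degrading enzyme of Bergmann glia and hindbrain astrocytes, was at 26.7, 42.2 and 33.8 in young and 0.0482, 0.0735 and 0 in treated libraries (-5.06). Gdf10, a Bergmann glia growth factor, fell by 3.18, and Pax2, a factor of interneuron precursors, fell from 5.34, 7.39 and 6.56 TPM to 0 in each treated library. Slc1a3, the glutamate transporter of Bergmann glia that other astrocytes also make, fell by 0.92.

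Several genes outside any cerebellar list moved with them. The adhesion gene Crtam was at 18.8, 27.9 and 21.8 in young and 9.87, 10.6 and 10.8 in aged saline libraries and listed at 0 in all treated ones. Cnpy1, known from the midbrain-hindbrain boundary, fell by 7.21, and Il20rb, a cytokine receptor subunit, fell by 3.33. Fgf7, a fibroblast growth factor, was at 13.4, 17.1 and 15.02 in young and 0.1205, 0.2297 and 0.118 in treated libraries (-3.80). In all, 22 genes were above 1 TPM in every young library and listed at 0 in every treated one, 19 of them with a gene symbol. Besides Crtam and Pax2 they include 5 Hox genes, Slc6a5, Lbx1, Tlx3, Nps and Skor2, a Purkinje neuron factor. The immune cytokine gene Il22 and its near-identical copy Il22b were also among them, and reads of such copies could not be assigned with certainty. In the other direction 3 genes were listed at 0 in every young and above 1 TPM in every treated library, of which Ccl21a, a lymphoid chemokine with close copies in the genome, carries a symbol.

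Brainstem and spinal cord identity genes formed the next group. Of 19 Hox genes on the list 6 passed the 1 TPM filter, and these 6 fell, also with 2 libraries per group. A gene that is high in young libraries alone had to differ to pass this filter, so the count is a description only. Their median was -2.68 in treated and -2.24 in aged saline, and none was called between treated and aged saline. Hoxb5, which specifies hindbrain and cervical levels, was at 10.96, 13.7 and 12.04 TPM in young, 0, 0.979 and 1.26 in aged saline and 0 in every treated library (-3.72 ± 0.26, adjusted p = 1.11e-05; against aged saline, 0.0792). Hoxa5 read 6.58, 10.3 and 8.54 in young, 0, 0.843 and 1.504 in aged saline and 0, 0.0646 and 0.0669 in treated libraries. The Hox genes were therefore low in both old groups, while most of the cerebellar fall lay in the treated group. Of 15 glycinergic and brainstem neuron markers 11 passed the filter, and 10 of these fell, also with 2 libraries per group. Their median was -2.34, and 7 fell against aged saline. The limit set by the filter holds for this count too. The neuronal glycine transporter Slc6a5 was at 6.68, 12.5 and 9.58 in young, 1.45, 1.54 and 1.74 in aged saline and 0 in treated libraries. Tlx3, a homeobox gene whose sites include brainstem sensory neurons, was at 4.52, 7.19 and 6.25 in young, 8.72, 7.11 and 6.34 in aged saline and 0 in treated libraries. Aged saline thus overlapped young for Tlx3, unlike for the Hox genes, and its fall lay in the treated group alone. Nps, the neuropeptide of a few brainstem nuclei, was at 4.06, 4.97 and 6.28 in young libraries and 0 in all 6 old ones.

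Regional transcription factor families held falls and rises. All 5 tested Zic genes fell (4 with 2 libraries per group, 4 against aged saline). Zic1, needed for granule neuron precursors, was at 124, 179 and 149 TPM in young, 80.7, 90.1 and 97.2 in aged saline and 16.3, 10.9 and 13.2 in treated libraries (-3.39), and Zic2 fell by 3.51. Of 6 Iroquois genes 4 passed the 1 TPM filter, and these fell in every one of these fits, with Irx1 at -2.49 and Irx2 at -2.51. Of 9 Pax genes 2 passed it, and both fell, also with 2 libraries per group. A gene that is high in saline libraries alone had to differ to pass this filter, so these counts are a description only. Of 6 tested Lhx and Lmx genes 3 fell and 3 rose (2 and 1 with 2 libraries per group). Among the falls was Lhx1, a Purkinje and hindbrain factor, from 9.86, 14.99 and 13.1 to 0.0776, 0.0725 and 0.0377 TPM. Of 5 Dlx genes, which specify forebrain GABA neurons, 4 rose and 1 fell (3 and 1 with 2 libraries per group).

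Monoaminergic and thalamic markers were lower with less certainty. Of 9 markers of serotonergic, noradrenergic and dopaminergic neurons 5 fell and none rose, but 1 fell with 2 libraries per group. The dopamine transporter Slc6a3 fell by 2.43, and the vesicular monoamine transporter Slc18a2 fell by 1.39, while tyrosine hydroxylase (Th) was at 0.19 (adjusted p = 0.74). Of 12 thalamic markers 7 fell and none rose (2 falls with 2 libraries per group). They included Slc17a6, the glutamate loader of thalamus and brainstem, at -1.29 and the kinase Prkcd at -1.58. Of 10 choroid plexus genes 7 fell (1 with 2 libraries per group), but library values were far apart. The thyroxine carrier Ttr was at 2282, 2229 and 2224 TPM in young, 155, 782 and 1241 in aged saline and 951, 15.6 and 481 in treated libraries, and it was not called (adjusted p = 0.057).

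Forebrain projection neuron genes lay on the other side. Of 15 neocortical excitatory neuron markers 12 rose and 2 fell (4 and 1 with 2 libraries per group), with a median of 1.22. Aged saline had a median of 0.69 for the same list, and between treated and aged saline 2 rose and 1 fell. Mef2c, a factor of upper and deep layer neurons, rose by 1.50 and Tbr1, a deep layer factor, by 1.84. The exchange factor Rasgrf2 was at 5.897, 4.14 and 5.296 TPM in young, 7.41, 6.59 and 6.66 in aged saline and 12.8, 13.1 and 13.6 in treated libraries (1.22, adjusted p = 3.63e-05; against aged saline, 0.000855). The falling members were Bhlhe22 (-1.06) and Neurod2 (-0.95), of which Neurod2 is also made by cerebellar granule neurons. Of 16 striatal projection neuron markers 9 rose and none fell, but none was called with 2 libraries per group, and the rises numbered 5 without treated library 2 or 3 and 15 without treated library 1 or young library 1. The dopamine receptor Drd1 shows the spread: young libraries read 10.2, 0.802 and 5.63 TPM, aged saline 18.5, 14.02 and 10.6 and treated 12.7, 25.9 and 20.6, so the young libraries differed widely and the highest of them lay close to the lowest treated one (adjusted p = 0.0198; 0.0572 without treated library 2, 0.058 without treated library 3 and 0.132 with 2 libraries per group). Hippocampal markers were mixed, with 4 rises and 2 falls among 9 (1 and 1 with 2 libraries per group).

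**Figure D3:**
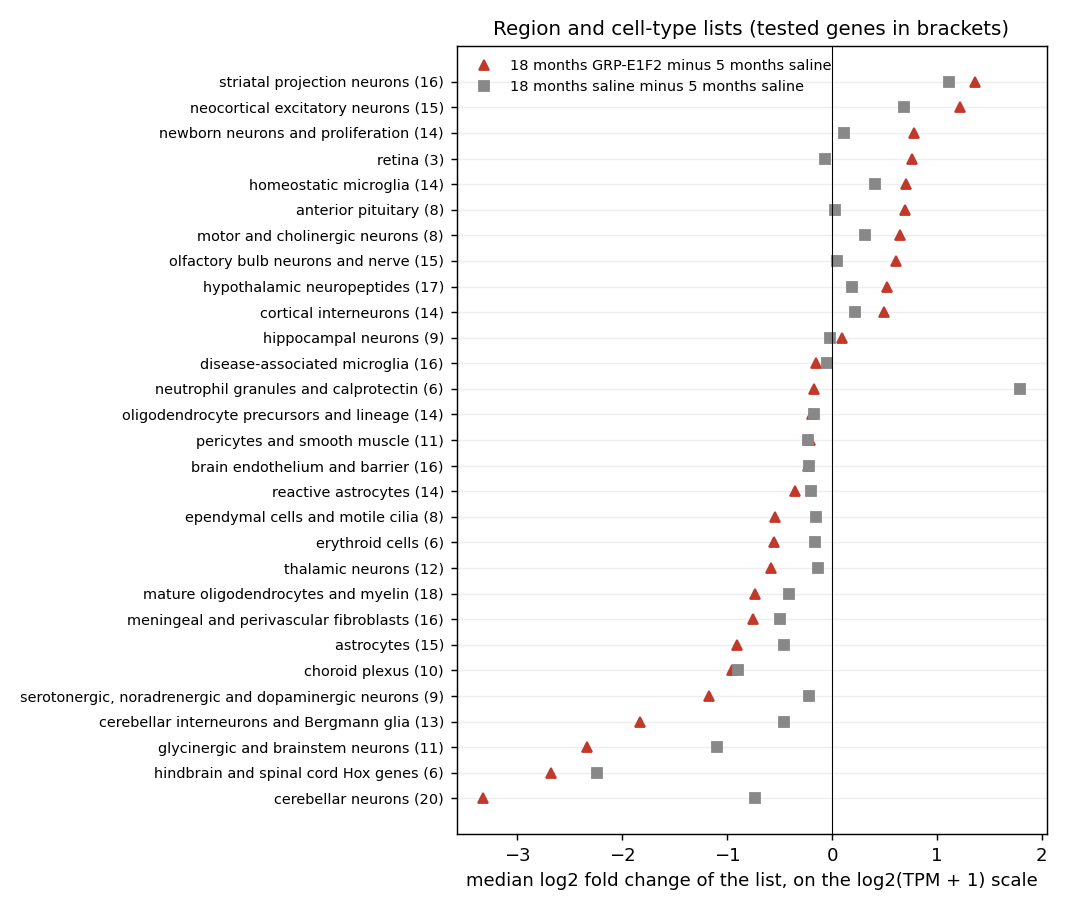
Median log2 difference of each gene list (horizontal axis, log2(TPM + 1) scale; vertical axis, the lists) for treated against young and for aged saline against young. Cerebellar neurons lie at -3.32 in treated and -0.73 in aged saline, whereas striatal neurons lie at 1.36 and 1.11.

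TPM are shares of a library, and cerebellar, brainstem and forebrain markers moved in different directions. The part of the makeup of the sampled tissue in these results and in those that follow was not tested.

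Receptor and channel families held both rises and falls. Of 13 GABA-A receptor subunits 6 rose and 3 fell (4 and 2 with 2 libraries per group): Gabra6 and Gabrd, which pair in granule neurons, fell (log2 differences of -6.28 and -0.78), and Gabra3 and Gabra5 rose by 0.93 and 0.77. Of 17 ionotropic glutamate receptor subunits 7 rose and 4 fell (1 and 3 with 2 libraries per group), a share of falls below the 29.4% of all tested genes. The falls included Grin2c (-1.83), the granule neuron NMDA subunit, and Gria4 (-1.28). Of 7 metabotropic glutamate receptors 5 rose and 2 fell, with Grm4, of granule neurons, among the falls (-2.32), while Grm5, high in forebrain, rose by 1.13. With 2 libraries per group the metabotropic count was 1 rise and 2 falls. All 4 tested muscarinic receptors rose (3 with 2 libraries per group). Chrm1, the main cortical and hippocampal muscarinic receptor, was at 33.4, 17.2 and 25.9 TPM in young, 59.1, 51.2 and 50.4 in aged saline and 92.9, 78.3 and 84.4 in treated libraries (1.75 ± 0.19, adjusted p = 0.000145). Its 3 groups did not overlap. Of 12 serotonin receptors 7 rose and none fell (4 rises without young library 2 or 3, 1 with 2 libraries per group), among them Htr2a (1.31) and Htr1f (1.14).

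Voltage-gated potassium channels had 18 rises and 8 falls among 32 (6 and 5 with 2 libraries per group). The falls included the modifier subunit Kcng4, at 39.97, 59.9 and 50.7 TPM in young and 2.19, 1.51 and 1.86 in treated libraries (-4.15). Inward rectifier and two-pore potassium channels leaned to falls, 8 of 19 against 4 rises (5 and 1 with 2 libraries per group), with Kcnj12 at -2.07 and Kcnj4 at 2.05. Of 23 calcium channel genes 15 rose and 5 fell (5 and 5 with 2 libraries per group). The auxiliary subunit Cacnb3 was at 78.7, 49.5 and 65.4 in young, 109, 109 and 118 in aged saline and 166, 153 and 159 in treated libraries (1.31), whereas Cacna1g, a T-type channel of Purkinje and thalamic neurons, fell by 1.45 and Cacng2, the stargazin gene, fell by 1.06. Regulators of G protein signalling rose in 10 of 16 cases and fell in 2 (2 and 2 with 2 libraries per group), with Rgs14 at 1.62 and Rgs8, a Purkinje gene, at -2.37.

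Among adhesion families, 7 of 9 non-clustered protocadherins rose and none fell (2 with 2 libraries per group), and 6 of the 9 also rose against aged saline. Pcdh10 rose by 1.31. The clustered protocadherins, whose isoforms share exons and thus reads, had 13 rises and 3 falls among 43 (8 and 2 without young library 2 or 3), and none called with 2 libraries per group. Ephrins and Eph receptors rose in 10 of 19 cases and fell in 3 (6 and 2 with 2 libraries per group). Epha5, a forebrain axon guidance receptor, was at 9.14, 7.37 and 8.402 TPM in young, 12.2, 11.1 and 10.2 in aged saline and 20.9, 19.7 and 20.1 in treated libraries (1.19, adjusted p = 1.49e-05). Semaphorins and plexins leaned the other way, with 13 falls and 8 rises among 28 (3 falls and no rise with 2 libraries per group), although under quantile normalisation the counts were 9 and 10.

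**Figure D4:**
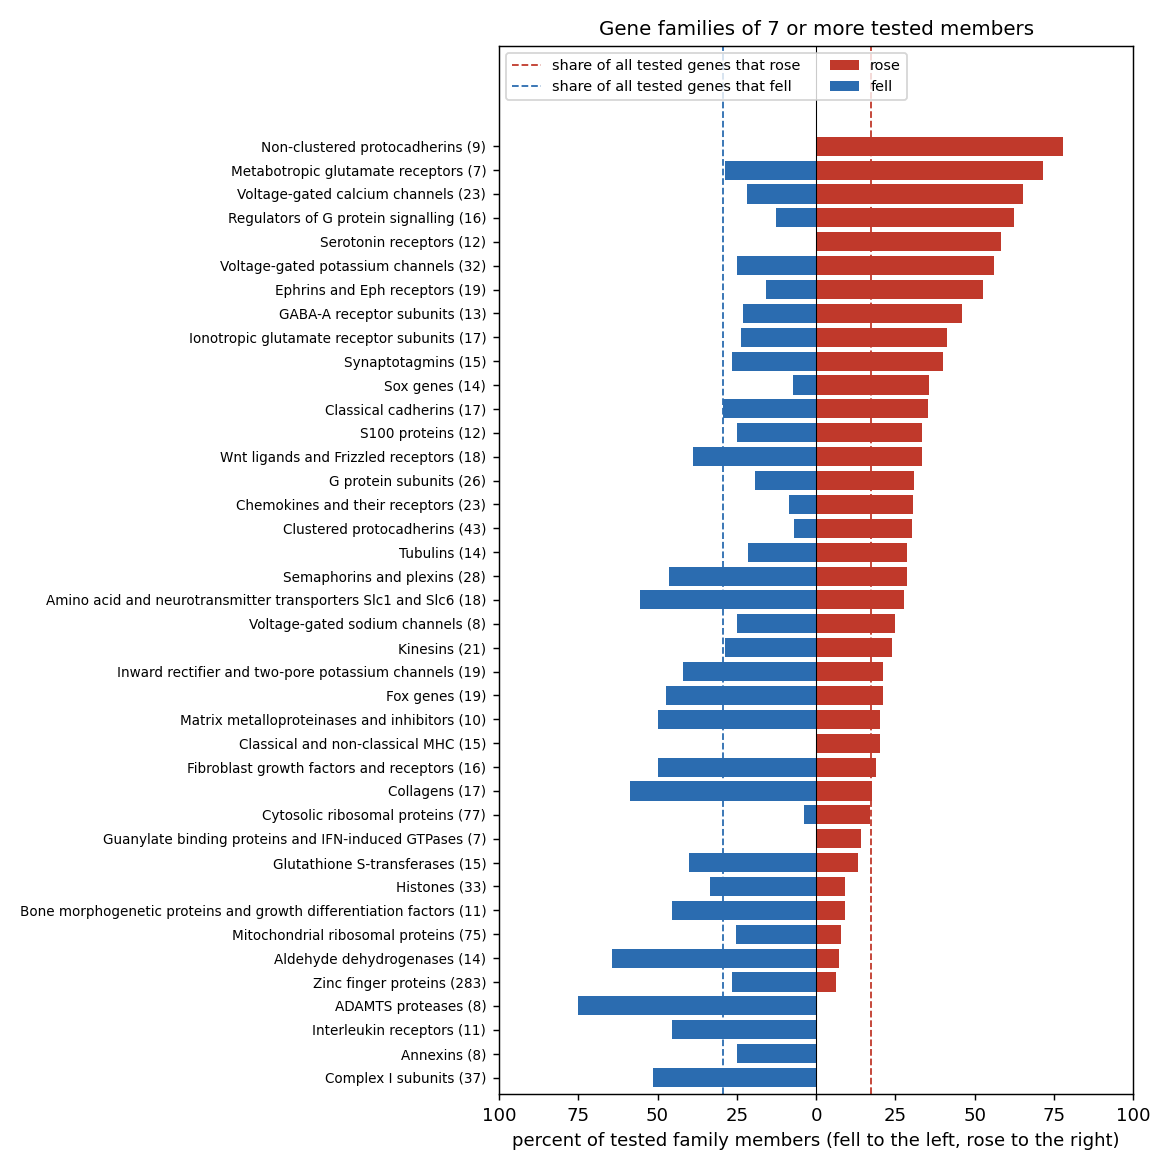
Percent of tested members that rose (right) and fell (left) in treated against young brain for gene families with 7 or more tested members (number in parentheses on the vertical axis), with dashed lines at the shares of all tested genes, 17.2% and 29.4%. Non-clustered protocadherins and metabotropic glutamate receptors lead the rises, while ADAMTS proteases lead the falls.

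Synapse genes rose on the postsynaptic side. Of 22 postsynaptic scaffold and CaMKII genes 13 rose and 2 fell (3 and 2 with 2 libraries per group). Camk2a, the forebrain calcium/calmodulin kinase, was at 419.6, 226 and 335 TPM in young, 699.8, 644 and 555 in aged saline and 1054, 728 and 902 in treated libraries (1.48, adjusted p = 0.000618; against aged saline, 0.138). Young library 2 was the lowest of the 9. The falls were Homer3, the Purkinje Homer, from 129, 186 and 159.8 to 8.803, 7.13 and 8.26 TPM (-4.12), and Gria4. Of 20 synaptic vesicle genes 7 rose and 3 fell, but with 2 libraries per group 1 rose and 2 fell. The hindbrain and fast-synapse isoforms Syt2 (-2.56) and Vamp1 (-1.82) fell, and the forebrain isoform Syt1 rose by 1.07. All 5 genes of the neurofilament and internexin family fell (2 with 2 libraries per group). Nefh, the heavy subunit of large projecting axons, was at 60.7, 74.8 and 69.1 in young, 30.1, 34.8 and 41.7 in aged saline and 22.2, 21.7 and 21.7 in treated libraries (-1.59).

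Immediate early genes were mostly higher in treated brain. Of 21 tested, 14 rose and 3 fell (6 rises and no fall with 2 libraries per group), with a median of 0.87. Aged saline had a median of 0.47, and against aged saline 5 rose and 3 fell. Nr4a1 (NCBI Gene 15370, chr15:101253902-101274795), an activity-induced nuclear receptor, was at 36.5, 28.7 and 33.8 TPM in young, 82.1, 66.7 and 59.9 in aged saline and 101, 84.8 and 92.7 in treated libraries. Its 3 groups did not overlap, with a log2 difference from young of 1.47 ± 0.13 (adjusted p = 3.63e-05; against aged saline, 0.045). Egr1, a zinc finger factor of synaptic plasticity, was at 69.9, 45.4 and 60.6 in young, 141, 115 and 99.8 in aged saline and 243, 153 and 197 in treated libraries (1.73, adjusted p = 0.000192). Fosb, the source of the long-lived deltaFosB, was at 5.65, 4.37 and 5.15 in young, 8.67, 6.88 and 6.69 in aged saline and 19.2, 11.3 and 14.8 in treated libraries (1.39; against aged saline, adjusted p = 0.00685). Fos (NCBI Gene 14281, chr12:85473890-85477274) rose by 0.56, from 27.4, 28.8 and 27.4 to 45.9, 36.9 and 42.3 TPM. The falls were Jun (-0.55), Jund (-0.27; not called when 1 of 7 libraries was left out in turn, adjusted p up to 0.124) and Ier2 (-0.32), and the phosphatase Dusp1 (-0.09, adjusted p = 0.505) and the neurotrophin Bdnf (0.39, adjusted p = 0.111) were not called. Markers of neocortical excitatory neurons were also mostly higher in the treated libraries (median 1.22), and their part in the values of the immediate early genes was not tested.

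The promoters of 2 rising genes are shown because their induction by activity is known to run through CREB, which binds the cyclic AMP response element. Nr4a1 is shown at chr15:101266596-101266845 and Fos at chr12:85473640-85473889 (both plus strand, GRCm38.p6, the 250 bases before the start in the RefSeq promoter table), with capitals marking the element's core TGACG or its reverse complement CGTCA.
Nr4a1: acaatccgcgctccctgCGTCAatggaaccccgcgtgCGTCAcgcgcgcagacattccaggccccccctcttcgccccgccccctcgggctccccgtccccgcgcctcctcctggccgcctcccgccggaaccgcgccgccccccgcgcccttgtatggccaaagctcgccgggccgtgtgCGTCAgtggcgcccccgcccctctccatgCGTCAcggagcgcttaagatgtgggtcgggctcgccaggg
Fos: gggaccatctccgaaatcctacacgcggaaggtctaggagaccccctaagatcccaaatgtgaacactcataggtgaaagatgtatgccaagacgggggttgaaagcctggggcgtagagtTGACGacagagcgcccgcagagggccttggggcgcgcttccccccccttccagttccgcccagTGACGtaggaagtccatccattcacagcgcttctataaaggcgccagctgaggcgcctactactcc
The Nr4a1 window lies inside the annotated span of the gene, whose first base is further upstream. It holds 4 copies between 233 and 40 bases before the start used, and Fos holds 2, at 129 and 66 bases. On both strands the core occurred in 11 of the 17 immediate early genes with a promoter sequence (64.7%) and in 4827 of 27025 promoters (17.9%). The full palindrome TGACGTCA, which contains the core on each strand, occurred in 2 of the 17 (Btg2 and Dusp1) and in 1.62% of all promoters. Of these, Dusp1 was not called, as above. The serum response element, or CArG box, occurred in none of the 17 within this window and in 1.399% of all promoters. The list was not matched to all promoters in base content. As for Rora, a match describes these letters only, and a part of CREB in the rises of these genes was not tested.

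Genes of newborn neurons were mostly higher, and those of the olfactory bulb and nerve went both ways. Of 14 newborn neuron and proliferation markers 10 rose and 1 fell (5 and 1 with 2 libraries per group), with a median of 0.78 in treated and 0.12 in aged saline. Between treated and aged saline 6 rose and none fell. Dlx1 (NCBI Gene 13390, chr2:71528113-71533981), a homeobox gene of GABA neuron precursors, was at 10.1, 5.002 and 7.703 TPM in young, 14.3, 13.7 and 13.7 in aged saline and 36.02, 46.3 and 40.6 in treated libraries. All treated values lay above all others, 2.33 ± 0.19 over young (adjusted p = 2.59e-05; against aged saline, 0.000944). Igfbpl1, a marker of neuroblasts, was at 1.38, 0.664 and 1.16 in young, 0.1397, 0.389 and 0.439 in aged saline and 3.98, 4.85 and 4.35 in treated libraries, so it was lowest in aged saline and highest in treated brain (1.39; against aged saline, adjusted p = 3.66e-05). Dlx2, Sp8 and Sp9, which mark neuroblasts bound for the olfactory bulb and also mature bulb or striatal neurons, rose by 2.08, 2.18 and 1.99. The neuronal stathmin Stmn2 fell by 0.51.

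Of 15 olfactory bulb and nerve genes 8 rose and 4 fell (6 and 3 with 2 libraries per group). The 17 list genes found summed to 1974, 2650 and 2355 TPM in young and 1026, 1283 and 1189 in treated libraries. The sum was thus lower in treated libraries although more members rose than fell. Scgn, a calcium sensor of bulb interneurons, was at 0.242, 0.385 and 0.313 TPM in young, 0.877, 0.6896 and 0.788 in aged saline and 4.12, 14.1 and 8.27 in treated libraries (2.77). The sensory neuron genes were high in both old groups and uneven among the treated libraries. S100a5 was at 0.614, 0.643 and 0.632 in young, 54.9, 44.1 and 17.7 in aged saline and 4.78, 48.1 and 31.3 in treated libraries, and Omp at 0.793, 0.825 and 1.45 in young, 30.6, 22.8 and 16.04 in aged saline and 5.19, 22.8 and 11.7 in treated libraries. S100a5, at 3.68 (adjusted p = 0.00267), had the largest rise among genes with a symbol whose treated and young values did not overlap, but it was not called with 2 libraries per group (0.0643), and treated library 1 was far below treated libraries 2 and 3. Pituitary hormones were carried by treated libraries 2 and 3: Prl was at 0.329, 0.262 and 0.508 in young, 8.24, 6.96 and 7.86 in aged saline and 0.3604, 554 and 279.6 in treated libraries, and Gh at 0, 0.0952 and 0 in young, 12.8, 9.73 and 7.95 in aged saline and 0, 263 and 137 in treated libraries. Treated library 1 was at young levels for both hormones, so treated and young values overlapped although limma called both genes. The call of Prl was lost without any one young library (adjusted p 0.0735 to 0.0835), without aged saline library 2 (0.0524) or without treated library 2 (0.104) or 3 (0.121). That of Gh was lost without any one young library (0.0763 to 0.085), without aged saline library 1 (0.0511) or 2 (0.0543) or without treated library 2 (0.108) or 3 (0.125).

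**Figure D5:**
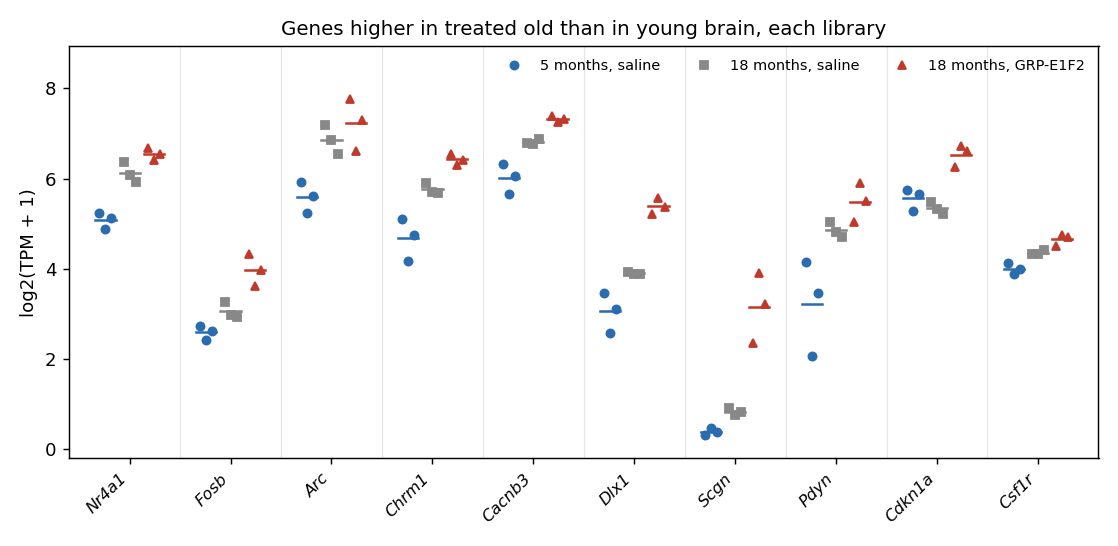
Level of genes that rose in treated against young brain (vertical axis, log2(TPM + 1)) in each of the 9 libraries; symbols mark the young, aged saline and treated libraries and short lines the mean of each group. Nr4a1 and Dlx1 have treated points above every young point, and the young points of Pdyn (at 16.7, 3.18 and 10.1 TPM) and the treated points of Scgn are widely spread.

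Myelin and astrocyte genes were lower in treated brain. Of 18 myelin and mature oligodendrocyte genes 17 fell and none rose (13 falls with 2 libraries per group), with a median of -0.73, against -0.41 in aged saline. Against aged saline 9 of the 18 fell. Mbp (NCBI Gene 17196, chr18:82475091-82585637), myelin basic protein, was at 4198, 4317 and 4293 TPM in young, 2956, 3210.4 and 3223 in aged saline and 2421, 2586 and 2477 in treated libraries. The 3 groups were apart and tight, with a log2 difference from young of -0.78 ± 0.06 (adjusted p = 1.49e-05; against aged saline, 0.00469). The exception was Opalin (adjusted p = 0.186). Oligodendrocyte precursor genes were mostly not called, with 4 falls and 1 rise among 14 and none with 2 libraries per group. The share that fell was near the 29.4% of all tested genes.

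Of 15 astrocyte genes 13 fell and 1 rose (10 falls with 2 libraries per group, 8 against aged saline), with a median of -0.91. Aqp4, the water channel of astrocyte endfeet, was at 37.4, 50.9 and 42.9 TPM in young, 21.5, 21.1 and 22.8 in aged saline and 9.75, 11.8 and 11.6 in treated libraries (-1.89, adjusted p = 4.3e-06). Aldoc, an aldolase of astrocytes and Purkinje neurons, was at 1347, 1648 and 1504 in young, 1074, 1129 and 1229.5 in aged saline and 603, 609 and 605 in treated libraries (-1.30). The rising member was Slc1a2, the forebrain glutamate transporter, at 0.61 (adjusted p = 0.00618), while Glul, glutamine synthetase, stood at 0.04 (adjusted p = 0.518). Of 14 reactive astrocyte genes 6 fell and 2 rose (3 falls with 2 libraries per group). Gfap, the intermediate filament that marks reactive astrocytes, was at 78.2, 88.8 and 84.8 in young, 49.96, 71.1 and 93.9 in aged saline and 46.1, 36.97 and 42.02 in treated libraries (-0.996, adjusted p = 0.00263; 0.064 with 2 libraries per group).

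Meningeal and perivascular fibroblast genes fell in 15 of 16 cases with 1 rise (8 falls with 2 libraries per group, 3 falls and 1 rise against aged saline). The proteoglycan Dcn was at 28.96, 38.9 and 33.1 TPM in young, 9.96, 11.99 and 12.9 in aged saline and 6.47, 5.704 and 6.02 in treated libraries (-2.29, adjusted p = 1.99e-06). Ptgds, prostaglandin D synthase, fell by 0.75. Matrix genes moved similarly: 10 of 17 collagens fell and 3 rose (6 and 1 with 2 libraries per group), with Col18a1 at -2.46 and Col6a1 at 1.403, and 6 of 8 ADAMTS proteases fell with none higher (4 falls with 2 libraries per group). Endothelial genes had 7 falls and 1 rise among 16 and pericyte genes 4 falls among 11, with none and 1 called with 2 libraries per group. For pericyte genes the share of falls was near the 29.4% of all tested genes.

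Genes of resting microglia were higher in treated brain. Of 14 homeostatic microglia genes 12 rose and none fell (5 with 2 libraries per group, 5 against aged saline), with a median of 0.71, against 0.41 in aged saline. Csf1r, the receptor on which microglia depend, was at 16.6, 13.7 and 15.1 TPM in young, 19.2, 19.02 and 20.2 in aged saline and 21.7, 26.1 and 24.9 in treated libraries (0.65, adjusted p = 0.000451). P2ry12, the purinergic receptor of surveying microglia, was at 9.11, 6.54 and 7.63 in young, 13.6, 10.99 and 11.2 in aged saline and 13.5, 20.1 and 16.3 in treated libraries (1.002). Sall1, the factor of microglial identity, was at 2.92, 2.82 and 2.83 in young, 3.03, 2.98 and 3.37 in aged saline and 4.601, 8.38 and 6.93 in treated libraries (0.95), so aged saline was close to young and treated brain was above (adjusted p against aged saline = 0.00659). Of 16 disease-associated microglia genes 2 rose and 7 fell (no rise and 4 falls without young library 3, 1 fall with 2 libraries per group). Spp1, osteopontin, fell by 1.95, but brainstem motor neurons make it too. Cd63, a tetraspanin that many cell types make, fell by 0.50.

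Immune lists showed few calls, and their counts changed without treated library 1. Of 11 complement genes 3 fell and none rose (2 falls with 2 libraries per group), with Serping1 (-1.05) and Cfp (-0.83) leading. MHC and antigen presentation genes had 2 rises among 15, and none was called with 2 libraries per group. Their mean level (log2 TPM + 1) was 3.29 to 3.34 in the young libraries and 2.91, 3.97 and 3.58 in treated libraries 1, 2 and 3. Without treated library 1 the list had 6 rises and 1 fall, among them H2-K1, a class I heavy chain, at 1.29 (adjusted p = 0.00107). Interferon response genes had 2 rises and 2 falls among 14 (no rise and 1 fall with 2 libraries per group), and 4 and 2 without treated library 1. Complement genes had 2 rises and 4 falls without that library. With all libraries the shares that rose and that fell in these 3 lists were below those of all tested genes (17.2% and 29.4%), and more rises were called in each list without treated library 1. Of 7 Toll-like receptor and polysaccharide sensing genes 2 fell, a share close to the 29.4% of all tested genes: the adaptor Myd88 (-0.64; against aged saline, adjusted p = 0.0016) and Nfkb1 (-0.57; not called with 2 libraries per group, 0.0615). Neutrophil granule genes had 2 falls among 6, S100a9 and Ngp, a share near the 29.4% of all tested genes, and none with 2 libraries per group. S100a9, a calprotectin subunit, was at 3.51, 2.02 and 2.38 TPM in young, 54.4, 34.8 and 14.7 in aged saline and 0.857, 0 and 0.842 in treated libraries (-1.25, adjusted p = 0.0372; against aged saline, -4.38, adjusted p = 0.000182). Its call against young was lost without any one young library (adjusted p 0.06 to 0.106), without aged saline library 2 (0.0539) and without treated library 2 (0.112) or 3 (0.0559). For the neutrophil list 4 of 6 genes fell against aged saline. Of 14 listed genes only these 6 passed the 1 TPM filter. A gene that is high in aged saline alone had to differ to pass this filter, so the count is a description only. The mean level of the list (log2 TPM + 1) was 2.46 to 3.28 in aged saline, 0.99 to 1.33 in young and 0.54 to 0.98 in treated libraries. Of 23 chemokine and chemokine receptor genes 7 rose and 2 fell (2 and 1 with 2 libraries per group), Cx3cl1, the neuronal ligand of the microglial receptor, by 1.18.

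Pdyn, the prodynorphin gene of the series' title (NCBI Gene 18610, chr2:129686549-129699938), was higher in treated than in young brain. It was at 16.7, 3.18 and 10.1 TPM in young, 32.1, 27.1 and 25.2 in aged saline and 31.8, 59.3 and 44.5 in treated libraries. No treated library lay below a young one, although the young libraries were spread widely, and the difference was 2.26 ± 0.45 (adjusted p = 0.00315; 0.0549 with 2 libraries per group). A two-sided exact permutation test of the 3 treated against the 3 young values returned p = 0.1, and no smaller p is possible with groups of this size. Treated against aged saline stood at 0.63 (adjusted p = 0.353). Of 8 opioid peptide and receptor genes 4 rose and none fell (1 rise with 2 libraries per group, 2 rises against aged saline). Pdyn is made by striatal, hippocampal and hypothalamic neurons, and the mean level of the 16 striatal markers was also lowest in young library 2 (3.51) and highest in treated library 2 (6.65, log2 TPM + 1). The part of that spread in the Pdyn value was not tested.

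Senescence genes did not move as a group. Of 11 cell-cycle inhibitors and senescence markers 2 rose and 2 fell (1 and 2 with 2 libraries per group). Among all tested genes 17.2% rose and 29.4% fell, so the rises were near that share and the falls below it. Cdkn1a (NCBI Gene 12575, chr17:29090979-29100722), the p21 inhibitor, was at 52.5, 38.02 and 49.6 TPM in young, 43.8, 39.5 and 36.4 in aged saline and 75.6, 104 and 96.6 in treated libraries. Aged saline overlapped young, and all treated values were above both, 0.96 ± 0.15 over young (adjusted p = 0.000789; against aged saline, 0.000801). Cdkn1b, the p27 inhibitor, was at 101, 129.9 and 112 in young, 99.6, 90.8 and 87.4 in aged saline and 44.8, 48.3 and 46.96 in treated libraries (-1.27, adjusted p = 1.29e-05), lowest in treated brain. Trp53 stood at 0.01 (adjusted p = 0.933). Of 12 secretory factors 3 rose and 5 fell (2 and 2 with 2 libraries per group), with Igfbp4 (1.24) and Igfbp6 (1.17) higher and Igfbp5 (-0.68) and Cxcl12 (-0.79) lower.

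Respiratory chain genes leaned down by small amounts, to an extent that depended on scaling. Of 33 nuclear oxidative phosphorylation genes 19 fell and none rose, but 12 fell without young library 2 or 3, 9 under median-of-ratios scaling and none with 2 libraries per group. Complex I subunits gave 19 falls among 37 (10 under median-of-ratios scaling, 1 with 2 libraries per group). Of all tested genes 29.4% fell as deposited and 23.2% under median-of-ratios scaling, so under that scaling both lists were near the share of all genes. Under quantile normalisation 18 genes fell in each list. None of the 13 mitochondrially encoded genes was called. Cytosolic ribosomal proteins had 13 rises and 3 falls among 77. The share that rose was near the 17.2% of all tested genes, and the share that fell was below 29.4%. The counts were 25 and 1 under median-of-ratios scaling, 6 and 1 without young library 2 or 3 or treated library 3, 26 and 2 without treated library 1, and 1 rise alone with 2 libraries per group. The mitochondrial ribosomal proteins had 6 rises and 19 falls among 75, which turned to 15 rises and 8 falls under median-of-ratios scaling and to 1 fall with 2 libraries per group, so no direction can be given for them. Glycolysis and citrate cycle genes were mixed (3 rises and 7 falls among 24, and 1 and 1 with 2 libraries per group) and changed their majority under median-of-ratios scaling. Their share of falls was near the 29.4% of all tested genes, and their share of rises was below 17.2%. Eno1, which has pseudogene copies, was at 199, 166 and 184 TPM in young, 229.96, 262 and 309 in aged saline and 409, 393 and 404 in treated libraries (1.13).

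Of 19 cholesterol synthesis and transport genes 7 rose and 1 fell (1 rise with 2 libraries per group). Cyp46a1, the neuronal hydroxylase that clears cholesterol from brain, rose by 0.85. Of 19 antioxidant genes 8 fell and none rose (1 with 2 libraries per group), including Gclm (-0.70), the glutathione synthesis modifier, and Cat, catalase (-0.59). The metallothioneins Mt1 and Mt2, made largely by astrocytes, fell (log2 differences of -1.18 and -1.30). Lysosome genes had 3 rises and 7 falls among 20 (2 falls alone with 2 libraries per group), with the regulator Tfeb at -0.91. These shares were near those of all tested genes (17.2% and 29.4%). Proteasome genes had 2 falls among 20 (3 rises and no fall under median-of-ratios scaling, none called with 2 libraries per group). Heat shock genes had 4 rises and 4 falls among 18 (3 falls alone with 2 libraries per group), with falls of Hspb8 (-1.14) and Bag3 (-1.13). Here the share of rises was near 17.2% and the share of falls below 29.4%.

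Signalling lists were mixed. Of 17 insulin and IGF signalling genes 2 rose and 7 fell (3 falls alone with 2 libraries per group), with Igf2, a meningeal and choroid growth factor, at -1.39 and the forkhead factor Foxo3 at -0.87. Of 14 sirtuin and longevity genes 2 rose and 6 fell (3 falls alone with 2 libraries per group), Sirt2, the oligodendrocyte sirtuin, being at -0.53. Fibroblast growth factors and receptors had 3 rises and 8 falls among 16 (1 and 5 with 2 libraries per group), aldehyde dehydrogenases 1 and 9 among 14 (1 and 2), with Aldh1a1 at -2.84. The Slc1 and Slc6 transporters had 5 rises and 10 falls among 18 (1 and 6 with 2 libraries per group), led by Slc6a5 and by Slc1a6, the Purkinje glutamate transporter (-2.86). The receptor tyrosine kinase Ret was at 10.97, 13.7 and 12.7 TPM in young, 3.997, 5.48 and 7.29 in aged saline and 1.75, 1.95 and 2.06 in treated libraries (-2.20). Circadian genes had 8 rises and 6 falls among 18 (2 and 2 with 2 libraries per group): Npas2, the forebrain partner of Bmal1, rose by 1.06, Dbp rose by 0.49, and Rora, as above, fell. Of 283 zinc finger protein genes 18 rose and 75 fell as deposited, near the background of 17.2% and 29.4% on the falling side, and 37 rose and 36 fell under quantile normalisation. Without young library 3 the counts were 9 and 40, and with 2 libraries per group 3 and 8.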

How the data were processed

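RNA from 9 brain libraries was sequenced, and the authors deposited 1 table of TPM values per gene for them. Per the submitters' processing notes the tools were HISAT2, Picard, SAMtools 0.1.18 and GATK with build mm10, while the tool and annotation behind the TPM are not given in the sources used. Groups came from the sample titles. Genes averaging 1 TPM or more across all 9 libraries were kept, and their log2(TPM + 1) values were fitted with limma 3.58.1 (R 4.3.3; all 9 libraries, 3 groups, eBayes with trend), with Benjamini-Hochberg adjustment over 13301 genes and a threshold of 0.05. This scale understates the change of low genes. The script was checked on simulated data. Named genes were Pdyn, the 12 largest rises and falls with no overlap, up to 4 genes of smallest p and 3 of highest mean per list, and list genes at 0 in 1 group. Bdnf, Calb1, Dusp1, Fos, Gabra3, Ier2, Jun, Opalin, Sall1, Shank2, Slc1a2, Tbr1, Trp53, Cga and Gm54192 fall outside that rule and were added with their values known. The comparison, the lists and the fit with 2 libraries per group were chosen with earlier results of these data known. Of 853 listed symbols 5 were not found. Promoters (250 bases, both strands searched) came from RefSeq, Python 3.11.15. Alternatives were pseudocounts of 0.1 and 5 TPM, other filters and scalings, a fit of 6 libraries, a replicate block, eBayes without trend, a minimum log2 change of 1, and leaving out libraries. A few genes that the rule names are not reported here.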

Additional observations from a re-analysis of the deposited data

How the results depend on the processing

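No called change among the 569 named genes reversed under the alternatives run, of which the filter at a mean of 5 TPM could test 455. The counts of called, higher and lower genes (6204, 2294 and 3910) fell to 1713, 520 and 1193 with 2 libraries per group, a fit with fewer libraries, and to 1006, 391 and 615 with a minimum log2 change of 1. Fits without each library in turn ranged from 4737 to 6635 calls, 1680 to 2460 rises and 3028 to 4175 falls, the lowest total without treated library 3 and the highest without aged saline library 1. Pseudocounts, filters, the fit of 6 libraries and eBayes without trend gave 4831 to 6987 calls. The share of rises among called genes was 37.0% as deposited, 49.3% with median-of-ratios scaling and 51.1% with quantile normalisation. Of 100 lists and families with more calls in 1 direction, 92 kept their majority under median-of-ratios scaling, 94 under quantile normalisation and only 65 with 2 libraries per group. The majority switched in 6, 4 and 8 of them, and the rest had no majority left. Of 449 called named genes 203 were not called with 2 libraries per group, and at most 39 under any other alternative. A replicate block gave 5944 calls (2257 up, 3687 down). Library numbers are shared between groups, but deviations of same-numbered libraries correlated at -0.055 to 0.126, so the pairing rests on the number alone. The depth is unknown, and values near 0 TPM have no counting interval.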

Other observations

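Developmental signalling genes were mixed or lower in treated against young brain. Of 18 Wnt ligands and Frizzled receptors 6 rose and 7 fell (2 and 5 with 2 libraries per group), with Fzd7 at -1.88, Fzd1 at -1.97, Wnt7a, a granule neuron ligand, at -1.54 and Wnt7b, a forebrain ligand, at 0.65. Bone morphogenetic proteins and growth differentiation factors had 1 rise and 5 falls among 11 (no rise and 3 falls with 2 libraries per group), led by Gdf10 and by Bmp1, a procollagen protease (-1.63). Of 11 interleukin receptor genes 5 fell and none rose (2 falls with 2 libraries per group). Il4ra, an interleukin receptor of type 2 immunity, was at 3.95, 4.01 and 4.22 TPM in young, 3.35, 3.41 and 3.67 in aged saline and 1.498, 1.24 and 1.598 in treated libraries (-1.05; against aged saline, adjusted p = 0.000158 by limma). Among 33 histone genes 3 rose and 11 fell, the latter near the 29.4% of all tested genes (2 and 5 with 2 libraries per group). The linker histone H1f0 was at -0.69. The part of cerebellar and brainstem tissue in these values was not tested.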
